A study of Mus musculus with 4 samples.

Results

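Cd160, Cd244a, Cd226, Crtam, Ncr1 and Slamf6 encode receptors of the immunoglobulin superfamily that natural killer (NK) cells share with cytotoxic T cells, and Sh2d1a encodes SAP, the adaptor of the SLAM receptors among them. These 7 genes were taken by symbol from a table of 24768 genes, and all 7 had a row. The table holds the RNA of 4 mouse libraries labelled as T cells, 2 of wild-type (WT) cDNT cells and 2 of cDNT cells with the genotype Tbx21-KO. The title of the series speaks of double-negative T cells, T cells lacking both CD4 and CD8, and of T-bet, the type 1 transcription factor that Tbx21 encodes. The labels do not spell out the "c" of cDNT, the strain, the age or how Tbx21 was removed, and the series' design text speaks of a knockdown. Whether the libraries of a group stem from separate animals or cultures is not labelled, so p-values reflect library-to-library spread that may be technical.

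The receptors tune cytotoxic lymphocytes after the antigen receptor or in its absence. CD244 (2B4) binds CD48 on neighbouring cells and signals through SAP or the related adaptor EAT-2. CD226 (DNAM-1) binds the poliovirus receptor and nectin-2, ligands that it shares in part with its competitors TIGIT and CD96. CD160 binds the TNF receptor family member HVEM. CRTAM binds the nectin-like molecule CADM1, NKp46 (Ncr1) signals through adaptors with activation motifs such as CD3 zeta and the Fc receptor gamma chain, and Slamf6 (Ly108) binds itself on other cells. T-bet is known as a factor that NK cells and cytotoxic T cells need for parts of their effector programme.

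Of the 7 genes, 4 were lower in Tbx21-KO: Cd160, Cd244a, Cd226 and Crtam fell to 22.0%, 30.6%, 50.6% and 37.4% of their WT means. Sh2d1a was not called. Ncr1 and Slamf6 lay below the filter of a mean of 1 FPKM (fragments per kilobase of gene, scaled by library size) and were not tested in the fit over 11013 genes. In that fit, made with limma on log2(FPKM + 1), 23.0% of all genes tested were called lower and 30.1% higher at a Benjamini-Hochberg adjusted p under 0.05, against 4 lower and 0 higher of the 5 members tested. Both Tbx21-KO libraries lay below both WT libraries in 35.3% of all genes tested. No member had an unadjusted p under 0.05 in the upward direction. The median log2 fold change (Tbx21-KO minus WT) was -1.03 over these 5 members and 0.04 over all genes tested.

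Some facts of the whole series bear on these values. Tbx21 was at 13.2 and 11.7 FPKM in WT, against 2.29 and 2.41 FPKM in Tbx21-KO (log2 fold change -2.01, SE 0.08, limma adjusted p = 8.21e-05). Markers of the labelled cell type were present: the 17 measured genes of the T cell receptor complex summed to 2092 to 2193 FPKM in WT, against 1511 to 1547 FPKM in Tbx21-KO. In that list 11 genes were lower, 2 higher and 4 not called. Cd4 and Cd8b1 were under 3 FPKM in every library, and Cd8a was not analysed here. Both Tbx21-KO libraries also held markers of other cell types: the 12 granulocyte and mast cell markers summed to 9.91 to 13.4 FPKM in WT and to 10519 to 10824 FPKM in Tbx21-KO, and all 12 were called higher, as were all 6 tested monocyte and macrophage markers. Only 5 of the 12 and 4 of the 6 averaged 1 FPKM or more in WT, and for the others, which entered the test on their Tbx21-KO values, only a rise could be seen. Dendritic cell markers summed to 51.9 to 57.5 FPKM in WT and to 153.9 to 159.6 FPKM in Tbx21-KO, with 5 of 7 tested genes higher and 0 lower, and B cell markers to 39.1 to 41.2 and 72.0 to 75.8 FPKM, with both tested genes higher. No measured gene of these lists was at 0 in both WT libraries. In bulk RNA, fewer cells of a type and less RNA per cell cannot be told apart. For this reason each member is also given relative to the T cell receptor list in the same library, a ratio that library scaling does not touch. Markers that NK cells and innate lymphoid cells carry, some of them shared with T cells, moved both ways: of 9 tested, 5 were lower, 2 higher and 2 not called, with a median of -1.05. Lower were Tbx21, the T-box factor gene Eomes (47.0% of its WT mean), Zfp683, the Hobit gene of tissue-resident lymphocytes (9.92%), the integrin gene Itga1 (12.8%) and Klrb1c (34.1%), and higher were Id2 and Il7r. This list summed to 353.8 to 360.2 FPKM in WT and to 410.0 to 431.0 FPKM in Tbx21-KO. None of its measured genes was at 0 in both WT libraries. Zfp683 was under 1 FPKM in Tbx21-KO and entered the test on its WT values, so only a fall could be seen. The part of all these cell types in the changes below was not tested. After T cell scaling, in which the libraries were brought to an equal geometric mean of that list, 67.9% of all genes tested were called higher and 5.69% lower, so that small changes below have no settled direction. In the list of NK and innate lymphoid cell markers that scaling called 5 genes lower and 4 higher.

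Cd160 (ENSMUSG00000038304, GRCm38 chromosome 3, 96798763 to 96829351, minus strand) had the highest level of the 7 in WT and fell furthest of the 5 tested. It encodes a receptor that is anchored to the membrane by a lipid in its main form and is found on NK cells, intraepithelial lymphocytes and cytotoxic T cells. Its level was 45.6 and 50.7 FPKM in WT 1 and 2, against 9.68 and 11.5 FPKM in Tbx21-KO 1 and 2. Both Tbx21-KO libraries lay far below both WT libraries, and the groups did not overlap. The log2 fold change was -2.08 (SE 0.10, limma adjusted p = 0.000137). Relative to the T cell receptor list, Cd160 stood at 0.682 and 0.736 in WT and at 0.190 and 0.225 in Tbx21-KO, which is 29.3% of the WT ratio. After T cell scaling its log2 fold change was -1.70 and it was still called lower. Of the 2642 exon bases of Cd160, 68 are shared with Pdzk1 on the other strand, a gene at 0.152 FPKM at most.

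Cd244a (ENSMUSG00000004709, GRCm38 chromosome 1, 171559193 to 171609746, plus strand) encodes 2B4, the SLAM family receptor for CD48. It was at 36.2 and 32.8 FPKM in WT 1 and 2, against 10.3 and 10.7 FPKM in Tbx21-KO 1 and 2. The groups did not overlap, and the Tbx21-KO libraries lay close together. The log2 fold change was -1.62 (SE 0.06, limma adjusted p = 8.18e-05), and the ratio to the T cell receptor list fell to 40.5% of its WT value, from 0.541 and 0.476 to 0.203 and 0.209.

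The sequences just before the start sites of these genes with the largest falls are shown because T-bet binds T-box sites. RefSeq promoters (GRCm38.p6) were found for 4 of the 7 members, Cd160 and Ncr1 with 2 start sites each. The 250 bases before the start are given 5′ to 3′ on the strand of the gene, and capitals mark the T-box core GGTGTG or its reverse complement CACACC. The Cd160 windows are chr3:96829352-96829601 and chr3:96814522-96814771 (minus strand), and the Cd244a window is chr1:171558943-171559192 (plus strand).
Cd160 upstream start: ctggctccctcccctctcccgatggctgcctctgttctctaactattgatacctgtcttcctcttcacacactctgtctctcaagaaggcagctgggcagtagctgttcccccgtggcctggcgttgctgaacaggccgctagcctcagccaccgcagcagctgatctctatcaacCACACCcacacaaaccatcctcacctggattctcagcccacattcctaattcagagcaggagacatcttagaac
Cd160 downstream start: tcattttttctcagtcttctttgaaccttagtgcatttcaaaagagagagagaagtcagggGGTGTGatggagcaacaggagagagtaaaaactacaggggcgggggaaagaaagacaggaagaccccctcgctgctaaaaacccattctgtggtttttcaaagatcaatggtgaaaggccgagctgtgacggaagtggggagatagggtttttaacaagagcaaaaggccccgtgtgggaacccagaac
Cd244a: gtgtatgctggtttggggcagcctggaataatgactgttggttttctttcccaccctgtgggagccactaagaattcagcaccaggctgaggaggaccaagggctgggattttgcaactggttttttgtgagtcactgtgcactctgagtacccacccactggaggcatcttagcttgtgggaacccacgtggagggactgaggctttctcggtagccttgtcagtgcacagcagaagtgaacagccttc
Each Cd160 window holds 1 core, beginning 74 bases before the upstream start on the opposite strand and 189 bases before the downstream start on the strand of the gene. The core is found on either strand in 16.3% of the 32851 windows of this length in the table, so a match is common. The windows of Cd244a, Slamf6 and Ncr1 do not hold these letters, and the longer T-box site AGGTGTGA, which contains the core, was in none of the members' windows and in 1.12% of all. These are descriptions of the letters and not of binding.

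Cd226 (ENSMUSG00000034028) encodes DNAM-1, an activating receptor that promotes adhesion and killing. It was at 22.5 and 21.8 FPKM in WT 1 and 2, against 11.5 and 10.9 FPKM in Tbx21-KO 1 and 2. The groups did not overlap, and within each group the libraries were nearly level. The log2 fold change was -0.92 (SE 0.05, limma adjusted p = 0.000212). This was the smallest fall of the 4, and it shrank to -0.54 after T cell scaling, where it kept its call (limma adjusted p = 0.000799). The ratio to that list was 0.337 and 0.317 in WT and 0.227 and 0.212 in Tbx21-KO, or 67.1% of WT. Single genes of the list ranged from 35.3% (Cd28) to 155% (Cd5) of their WT means. Its constant segments Trac, Trbc1 and Trbc2 were at 54.1%, 55.2% and 58.2%, near the 50.6% of Cd226, and Trdc was at 137%. The size of the relative fall of Cd226 thus depends on the reference gene.

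Crtam (ENSMUSG00000032021, GRCm38 chromosome 9, 40969691 to 41004628, minus strand) encodes a receptor that appears on activated cytotoxic T and NK cells. It was at 4.20 and 4.52 FPKM in WT 1 and 2, against 1.57 and 1.69 FPKM in Tbx21-KO 1 and 2. The groups did not overlap. The log2 fold change was -1.03 (SE 0.08, limma adjusted p = 0.000573), and the ratio to the T cell receptor list was 49.7% of its WT value. At this low level the pseudocount weighs on the fold: with a pseudocount of 5 it was -0.50, and on recovered reads (voom in limma), which use no such pseudocount, -1.41.

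**Figure D1:**
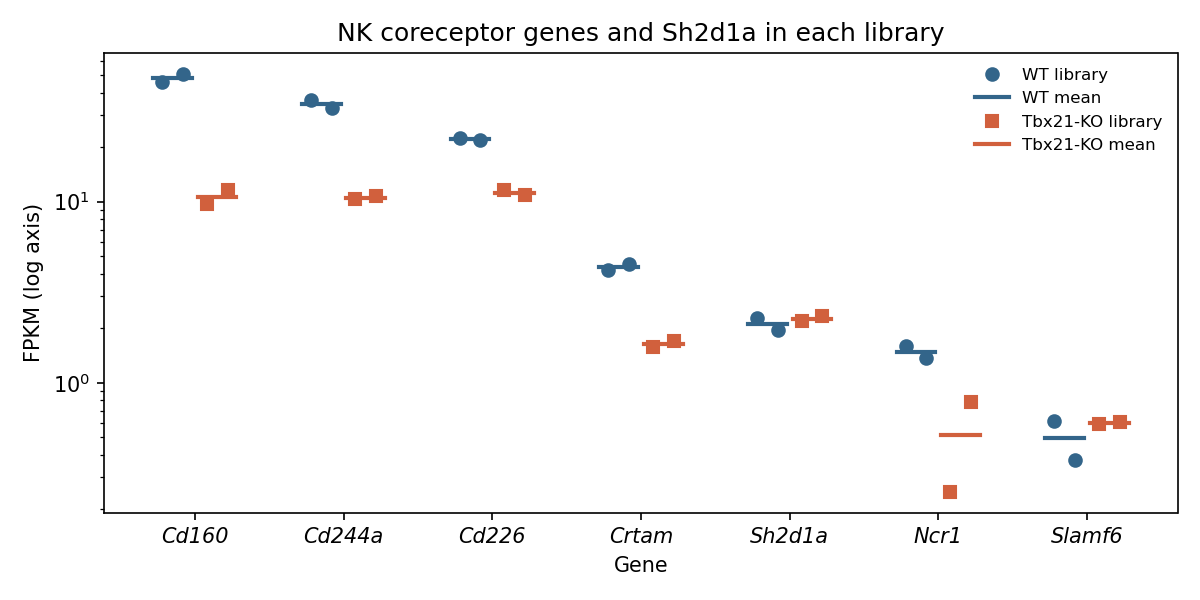
FPKM of the 7 genes in each library on a log axis, with circles for WT libraries, squares for Tbx21-KO libraries and a bar at each group's mean (n = 2). Cd160, Cd244a, Cd226 and Crtam have both Tbx21-KO libraries below both WT libraries, as has the low Ncr1, whose Tbx21-KO libraries lie far apart, while the groups of Sh2d1a and Slamf6 overlap.

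Sh2d1a (ENSMUSG00000005696, GRCm38 chromosome X, 42502453 to 42529330, plus strand) encodes SAP, a small protein made of an SH2 domain that couples SLAM receptors to the kinase Fyn. Its level was 2.27 and 1.95 FPKM in WT 1 and 2, against 2.19 and 2.34 FPKM in Tbx21-KO 1 and 2. The groups overlapped. The log2 fold change was 0.07 with a 95% interval from -0.17 to 0.31 (limma adjusted p = 0.551), which leaves room for a moderate change either way. Over the alternatives the log2 fold change went as low as -0.23, where Sh2d1a was not called. After T cell scaling it was called higher, at 0.35 (limma adjusted p = 0.0229, and 0.0938 to 0.981 in the other alternatives). That scaling put the median of all genes tested at 0.39 and called 67.9% of them higher. The ratio of Sh2d1a to the T cell receptor list was 0.0340 and 0.0283 in WT and 0.0430 and 0.0455 in Tbx21-KO. Of its 5505 exon bases, 1465 are shared with Tenm1 on the other strand, a gene at 0.00467 FPKM at most.

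Ncr1 (ENSMUSG00000062524, GRCm38 chromosome 7, 4337724 to 4345164, plus strand) encodes NKp46, an activating receptor that marks NK cells and some innate lymphoid and innate-like T cells. Its level was 1.59 and 1.37 FPKM in WT 1 and 2, against 0.250 and 0.784 FPKM in Tbx21-KO 1 and 2. These correspond to 61, 51, 9 and 29 reads, recovered from the FPKM and the exon length. Both Tbx21-KO libraries lay below both WT libraries, but they lay far apart, at 9 and 29 reads. Relative to the T cell receptor list, Ncr1 stood at 0.0237 and 0.0199 in WT and at 0.00492 and 0.0153 in Tbx21-KO, or 46.2% of WT. With no filter on low values the log2 fold change was -0.73 (SE 0.21) and was not called (limma adjusted p = 0.0990). It was called in the fit that kept genes averaging 1 FPKM or more in WT (limma adjusted p = 0.0390) and in that on recovered reads without a filter (-1.69, SE 0.48, limma adjusted p = 0.0403), so the call depends on the filter and the scale. The filter on WT values lets Ncr1 in through the group where it is high, which favours a fall, so that call lends no support. The share of all genes called lower in these 3 fits was 8.79%, 24.5% and 10.7%.

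Slamf6 (ENSMUSG00000015314, GRCm38 chromosome 1, 171917515 to 171953170, plus strand) was the lowest of the 7 in WT. Its level was 0.614 and 0.375 FPKM in WT 1 and 2, against 0.589 and 0.611 FPKM in Tbx21-KO 1 and 2, or 166, 98, 149 and 159 reads. The groups overlapped, WT 2 being the low library. With no filter the log2 fold change was 0.10 with a 95% interval from -0.21 to 0.42 (limma adjusted p = 0.549). At this low level the pseudocount of 1 narrows the fold and its interval. On recovered reads without a filter the log2 fold change was 0.32, with a wider 95% interval from -0.26 to 0.89 (limma adjusted p = 0.402). Relative to the T cell receptor list, Slamf6 stood at 0.00919 and 0.00545 in WT and at 0.0116 and 0.0119 in Tbx21-KO. The groups did not overlap in this ratio, which was not tested. The annotated exons of Slamf6 add up to 10832 bases over all its transcripts, more than for any other member, and an FPKM per that length understates a gene that is mainly read as a shorter transcript.

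The order of the levels changed between the groups. In WT the FPKM ran from Cd160 over Cd244a, Cd226, Crtam, Sh2d1a and Ncr1 down to Slamf6, and no 2 neighbours overlapped in their libraries. In Tbx21-KO the first 3 stood together: Cd226 averaged 11.2 ± 0.45, Cd160 10.6 ± 1.31 and Cd244a 10.5 ± 0.28 FPKM (SD, n = 2 each). The range of Cd160 overlapped that of Cd226 and that of Cd244a, while Cd226 and Cd244a did not overlap each other. Sh2d1a then stood above Crtam, at 2.26 ± 0.11 against 1.63 ± 0.09 FPKM (SD, n = 2 each), the reverse of their order in WT. Slamf6 and Ncr1 came last and overlapped. Summed over the 7 genes, the level was 113 and 114 FPKM in WT, against 36.1 and 38.6 FPKM in Tbx21-KO. Among the 11013 genes tested, Cd160 moved from the 90.4th to the 57.9th percentile of levels and Crtam from the 35.7th to the 8.09th.

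Cd244a and Slamf6 mark the ends of the SLAM receptor cluster on chromosome 1, and the changes differed along it. In chromosome order the SLAM genes with a row are Cd244a, Ly9, Cd48, Slamf1, Cd84 and Slamf6, and their starts span 358 kb (Slamf7, which lies among them, was not analysed here). The first 3 fell. Ly9, which encodes CD229, was at 23.2 and 22.7 FPKM in WT, against 12.7 and 12.9 FPKM in Tbx21-KO (log2 fold change -0.79, SE 0.04, limma adjusted p = 0.00021). Cd48, the ligand of 2B4, was the most abundant of the family, at 149.2 and 155.0 FPKM in WT, against 90.9 and 95.4 FPKM in Tbx21-KO (log2 fold change -0.70, SE 0.04, limma adjusted p = 0.000341). The next 2 rose. Slamf1, the signalling receptor after which the family is named, went from 1.06 and 1.04 to 2.32 and 2.60 FPKM, and Cd84, a self-binding receptor that myeloid cells carry too, from 7.64 and 7.74 to 12.5 and 13.2 FPKM, with log2 fold changes of 0.75 and 0.67. These directions were kept after T cell scaling, where Ly9 and Cd48 were at -0.40 and -0.30. The rises of Slamf1 and Cd84 were seen in the libraries whose granulocyte markers summed to 10519 to 10824 FPKM, and the part of those cells was not tested. Within a library Cd244a was 4.73 and 4.23 times Cd84 in WT and 0.824 and 0.814 times Cd84 in Tbx21-KO. Against its own ligand Cd48, Cd244a was 0.242 and 0.211 in WT and 0.114 and 0.112 in Tbx21-KO. Cd244a and Ly9 overlap as genes on opposite strands but share no exon base in the annotation. Slamf8 and Slamf9, myeloid members outside this stretch, were under 0.2 FPKM in every library.

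**Figure D2:**
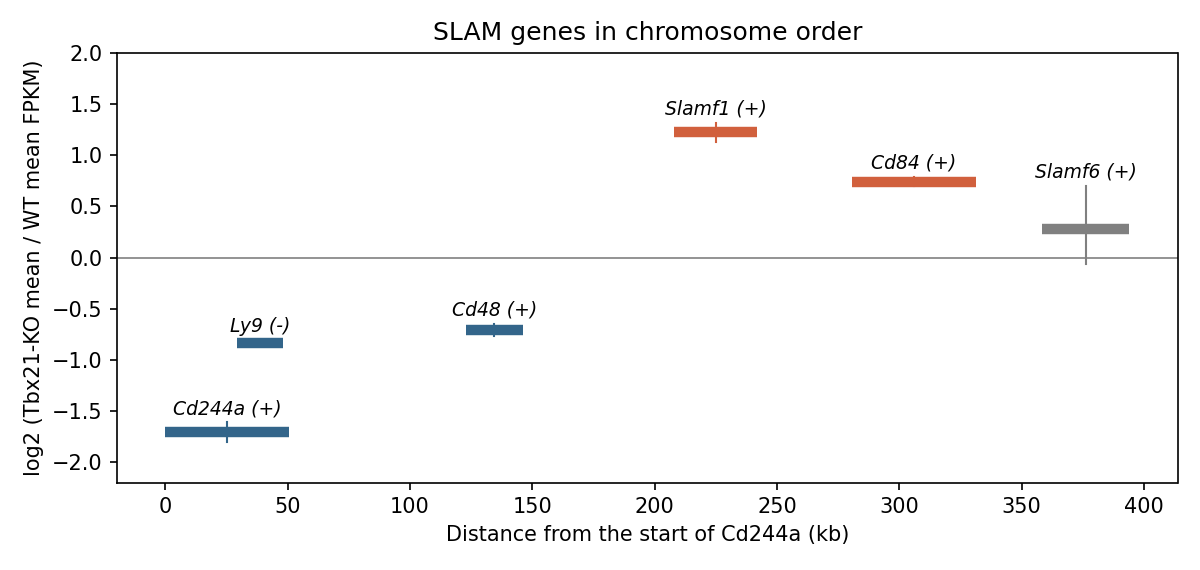
log2 ratio of the Tbx21-KO mean to the WT mean FPKM (n = 2 each, no pseudocount) for the 6 SLAM genes of the cluster, placed by distance from the start of Cd244a in kb, with the strand in brackets. Horizontal bars span each gene, thin vertical lines run from the lowest to the highest ratio between single libraries, and blue, red and grey mark genes called lower, called higher and not tested; the genes of the left stretch lie below 0 and Slamf1 and Cd84 above it.

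Among the adaptors that SLAM receptors use, the one that changed most was EAT-2. Of the 9 tested genes in the list of SAP adaptors and SLAM signalling, 4 were lower, 2 higher and 3 not called, with a median of -0.08. Sh2d1b1, which encodes EAT-2, the relative of SAP known from NK cells, was at 6.11 and 6.01 FPKM in WT, against 1.67 and 1.52 FPKM in Tbx21-KO (log2 fold change -1.44, SE 0.07, limma adjusted p = 0.000153). The groups did not overlap. Sh2d1a was thus at 0.372 and 0.324 times Sh2d1b1 in WT and at 1.31 and 1.54 times in Tbx21-KO. Sh2d1b2, a second EAT-2-like gene, was under 0.6 FPKM in every library and was not tested, and Fyn was not analysed here. Prkcq, a protein kinase C of T cells, fell by 0.98 on the log2 scale, Lcp2, the adaptor SLP-76, by 0.42, and Inpp5d, the inositol phosphatase SHIP-1, by 0.28. The phosphatase gene Ptpn6 (SHP-1) and Plcg1 rose by 0.15 and 0.31, and Vav1 and Ptpn11 (SHP-2) were not called, at -0.08 and 0.02. The call of Ptpn6 was lost in 5 alternatives: without WT 1 and without either Tbx21-KO library (0.12, 0.14 and 0.15), without a variance trend, and with median-of-ratios scaling, where it was at 0.035 (limma adjusted p = 0.466, and 0.000228 to 0.122 in the other alternatives). After T cell scaling only Sh2d1b1 and Prkcq were lower and 5 of the 9 were higher, Inpp5d turning to 0.12 and Vav1 to 0.32. With median-of-ratios scaling Vav1 was called lower, at -0.19, and after T cell scaling Ptpn11 was called higher, at 0.40.

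The receptors that share ligands with CD226 did not move as one. Of 7 tested genes in the list of CD226, TIGIT and nectins, 5 were lower, 0 higher and 2 not called, and the median was -0.27. Cd96, which encodes a competitor of CD226, was at 76.7 and 75.6 FPKM in WT, against 29.9 and 30.3 FPKM in Tbx21-KO (log2 fold change -1.31, SE 0.04, limma adjusted p = 3.43e-05). Pvrig, an inhibitory receptor for nectin-2, was at 18.3 and 18.0 FPKM in WT, against 6.55 and 8.13 FPKM in Tbx21-KO (log2 fold change -1.21, SE 0.10, limma adjusted p = 0.00075). Tigit, the inhibitory competitor, was at 28.1 and 33.9 FPKM in WT, against 27.2 and 25.7 FPKM in Tbx21-KO and was not called (log2 fold change -0.22, limma adjusted p = 0.12). With median-of-ratios scaling it was called lower, at -0.32, as it was without WT 1, at -0.35 (limma adjusted p = 0.00752, and 0.0387 to 0.35 in the other alternatives). Cd226 was thus 0.801 and 0.645 times Tigit in WT and 0.424 times in each Tbx21-KO library, while against Cd96 it was 0.293 and 0.289 times in WT and 0.386 and 0.360 times in Tbx21-KO. The groups did not overlap in either ratio, and the ratios moved in opposite directions. The smallest two-sided p of an exact permutation test is 0.33 with 2 libraries against 2, so no ratio was tested.

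On the ligand side, Pvr, the poliovirus receptor gene, fell by 0.27 on the log2 scale. Itgal, the alpha chain of the integrin LFA-1 that works with CD226, fell by 0.19, and its partner Itgb2 was not called, at 0.04. Both calls were lost without either Tbx21-KO library (Pvr at -0.28 and -0.26, Itgal at -0.23 and -0.15), that of Pvr also without WT 2 (-0.23) and that of Itgal also without WT 1 (-0.14), with no filter and with no variance trend (limma adjusted p = 0.0914 and 0.0664, and 0.00164 to 0.166 over all alternatives). After T cell scaling Pvr and Itgal turned to 0.088 and 0.21, and Itgb2 was called higher, at 0.44. Nectin2, the other ligand of CD226, was at 0.183 and 0.0474 FPKM in WT, against 1.29 and 0.929 FPKM in Tbx21-KO, below the filter. With no filter it was called higher, at 0.92 (limma adjusted p = 0.0208). It was also called higher on recovered reads without a filter, at 3.44 (limma adjusted p = 0.00569), from 16 and 4 reads in WT. These fits called 3762 of 24060 and 4773 of 24017 genes higher. Nectin1, Nectin3 and Nectin4 reached 0.40 FPKM at most, and in both of these fits Nectin1 and Nectin4 were called higher and Nectin3 was not.

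CD160 shares its ligand HVEM with BTLA and with the cytokine LIGHT. Tnfrsf14, the HVEM gene, was at 8.75 and 7.61 FPKM in WT, against 11.8 and 12.0 FPKM in Tbx21-KO (log2 fold change 0.49, SE 0.07, limma adjusted p = 0.00494). It is expressed by T cells and by myeloid cells, and the part of the latter was not tested. Tnfsf14, which encodes LIGHT, was not called, at -0.13, and was called higher, at 0.25, after T cell scaling, but lower, at -0.24, with median-of-ratios scaling. Btla was not analysed here. Cd160 was 5.21 and 6.66 times Tnfrsf14 in WT and 0.823 and 0.958 times in Tbx21-KO. Cadm1, the ligand gene of CRTAM, was at 0 or 0.008 FPKM in each library, and Scrib, which acts downstream of CRTAM in T cells, was not analysed here.

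In the list of adaptors with activation motifs and the kinases that they recruit, genes went in both directions. Of 5 tested genes, 2 were lower, 2 higher and 1 not called, with a median of -0.09. The 2 lower genes, Fcer1g and Cd247, encode the adaptors named above for NKp46, and the 2 higher ones were Tyrobp and Syk. Fcer1g, the Fc receptor gamma chain, was at 179.5 and 203.6 FPKM in WT, against 94.2 and 96.4 FPKM in Tbx21-KO and fell to 49.7% of its WT mean (limma adjusted p = 0.000429), in libraries where markers of myeloid cells, which express it too, were higher. Tyrobp, the adaptor DAP12, rose from 27.5 and 29.6 to 67.8 and 77.4 FPKM. Fcer1g was 6.53 and 6.87 times Tyrobp in WT and 1.39 and 1.25 times in Tbx21-KO. Syk, the kinase that NK and myeloid cells recruit to such adaptors, rose from 0.578 and 0.549 to 8.76 and 8.80 FPKM, whereas Zap70, its T cell relative, was not called, at -0.09. Syk was under 1 FPKM in WT and entered the test on its Tbx21-KO values, so only a rise could be seen. Cd247, the CD3 zeta chain, fell by 0.19, a call lost without either Tbx21-KO library (-0.21 and -0.17), and after T cell scaling Cd247 and Zap70 were called higher, at 0.21 and 0.32. With median-of-ratios scaling Zap70 was called lower, at -0.20. Cd247 and Zap70 are themselves in the T cell receptor list, so T cell scaling sets them against a mean that they help to define.

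**Figure D3:**
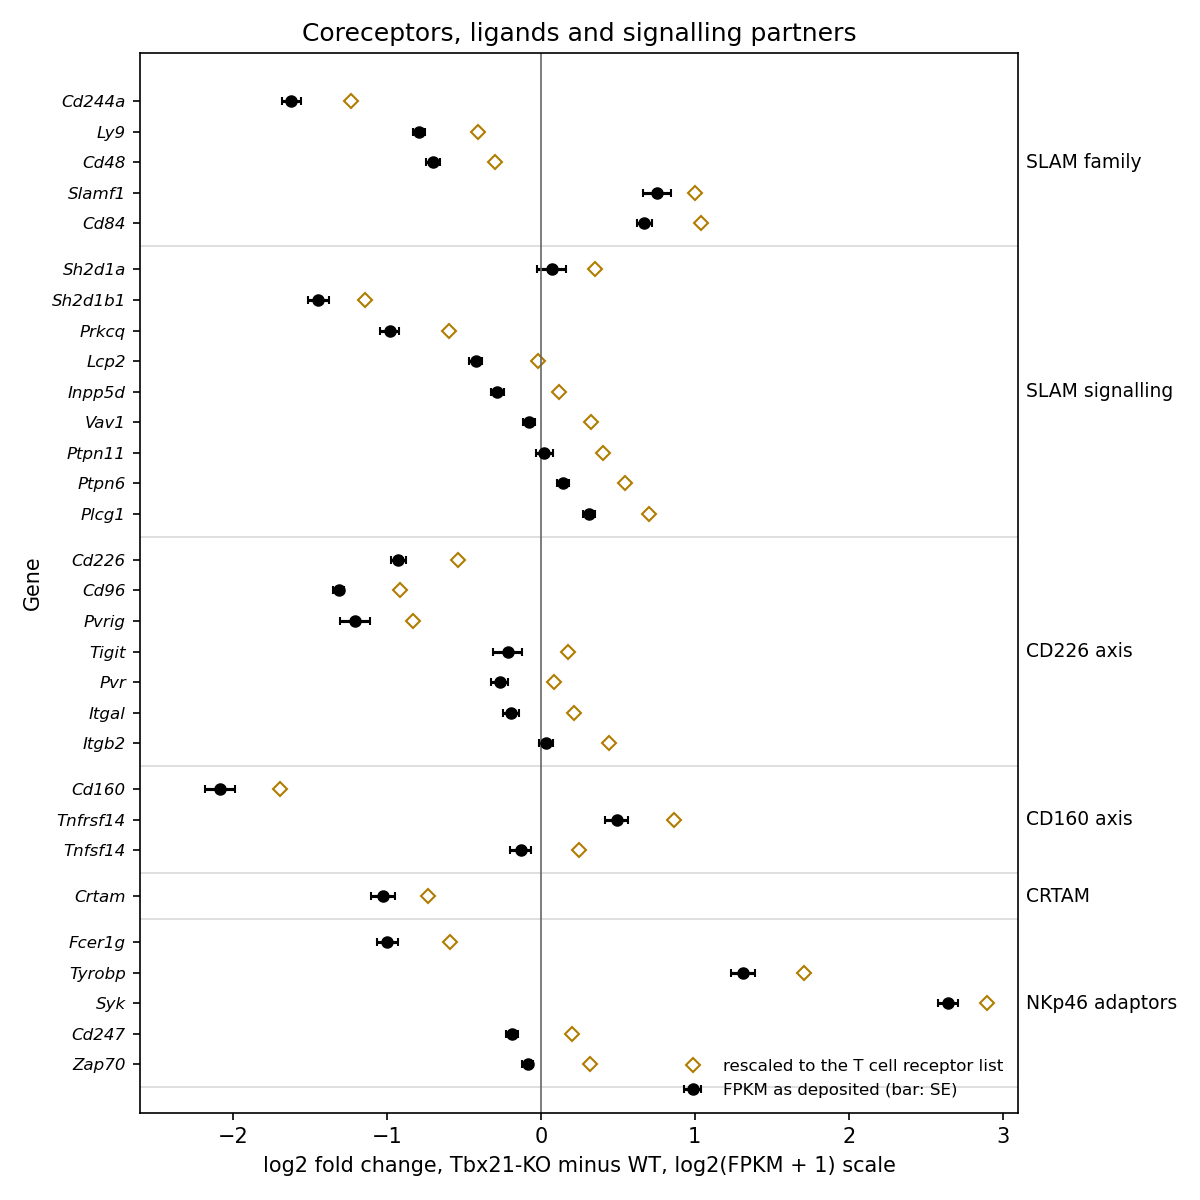
log2 fold changes (Tbx21-KO minus WT) of the tested coreceptor genes and their partners on the log2(FPKM + 1) scale, with black points and SE bars for FPKM as deposited and open diamonds after T cell scaling. Cd160, Cd244a, Cd96, Sh2d1b1, Pvrig, Crtam, Fcer1g, Prkcq, Cd226, Ly9 and Cd48 lie below 0 under both scalings, while points close to 0, such as Inpp5d and Itgal, cross it.

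**Figure D4:**
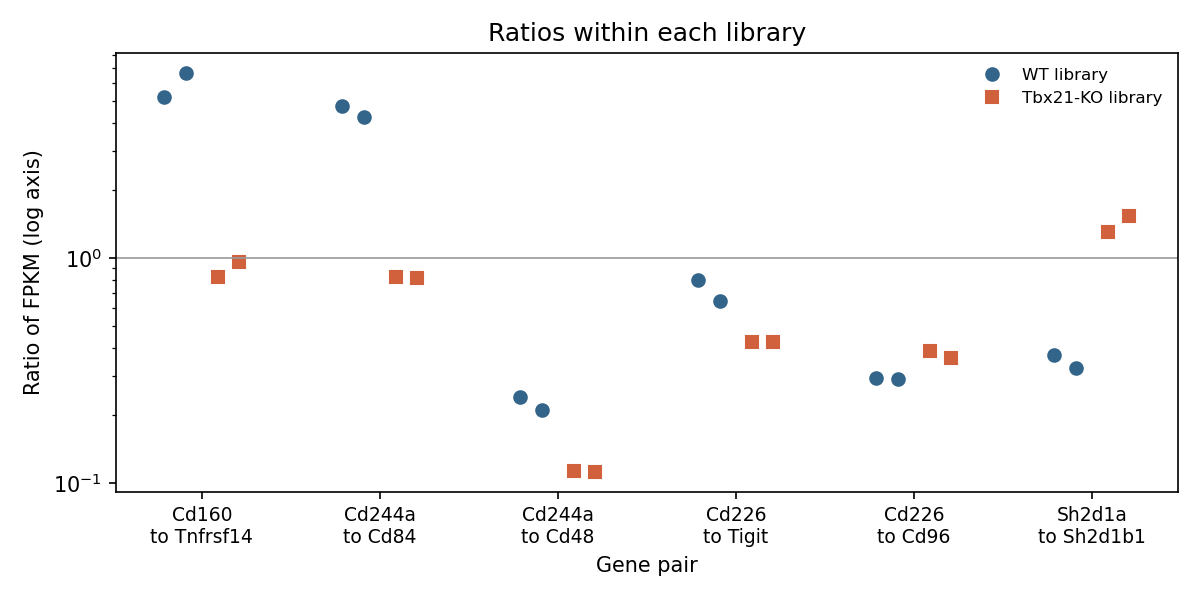
Ratios of FPKM between 2 genes in the same library on a log axis, with circles for WT and squares for Tbx21-KO and a line at 1. Cd160 to Tnfrsf14 and Cd244a to Cd84 lie above 1 in WT and below it in Tbx21-KO, Sh2d1a to Sh2d1b1 goes the other way, and Cd226 falls against Tigit but not against Cd96.

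The lectin-like NK receptors, which NK cells also share with cytotoxic T cells, give a side-by-side value. Of 15 tested genes of that kind 13 were lower and 2 higher, with a median of -1.66. Klrb1f, one of the 2, was under 1 FPKM in WT and could only be seen to rise. Klra3 and Klra9, among the 13, were under 1 FPKM in Tbx21-KO and entered the test on their WT values, so only a fall could be seen. Beside these stand 4 lower of 5 tested immunoglobulin-like members, with a median of -1.03. Whether the lists differ was not tested.

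The genes whose profile over the 4 libraries was most like that of a tested member were found by the Euclidean distance between mean-centred log2(FPKM + 1) values, over all tested protein-coding genes. With 4 libraries in 2 groups this finds mainly genes with the same fold change. For Cd160 they were Klra3, a receptor of the Ly49 family, and Sema6d, at distances of 0.10 and 0.18. For Cd244a they were Tjp1 and Aqp9, at distances of 0.06 and 0.07 and with log2 fold changes of -1.67 and -1.66. For Crtam they were Frmd4b and Egr2, with log2 fold changes of -1.03 and -0.99, and for Cd226 Tns1 and Foxo1, both at -0.92 or -0.93. For Sh2d1a they were Cep120 and Nde1, neither of which was called, at 0.07 and 0.06.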

How the data were processed

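Per the labels' protocols, libraries came from column-purified RNA and a kit for mRNA. The authors deposited FPKM values per gene and library. The submitters' processing notes name GRCm38 and mm10. Aligner, counter and strand setting: not given in the sources used here. Without strand the reads of genes that overlap on opposite strands cannot be told apart. The last of 24769 rows breaks off and was left out. Gene IDs were matched to GENCODE M21 (24720 matched). With each gene's summed exon length, 96.8% to 97.3% of the values under 20 reads came out whole within 0.1 read and gave totals of 23342397 to 24966796 reads per library, which need not be the full depth.

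The test used log2(FPKM + 1) (pseudocount 1) of the 11013 genes that averaged 1 FPKM or more, by limma 3.58.1 in R 4.3.3 with a variance trend and no covariate, over all 4 libraries. Benjamini-Hochberg adjustment covered all genes tested. The steps were tested on simulated data, where the share of false calls was above the 0.05 that the adjustment targets. Members and lists were chosen with earlier results of these data known. Named are Tbx21, the 7 members, the measured genes of the lists, and the 2 genes most alike in profile to each tested member. Alternatives were other pseudocounts, filters, scalings and variance models, recovered reads, a replicate block and leaving out each library. The fit on recovered reads without a filter was added after seeing that Ncr1 and Slamf6 lay below the filter. Btla, Fyn, Scrib, Slamf7, Cd8a and a few other listed genes were not analysed here.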

Additional observations from a re-analysis of the deposited data

How the results depend on the processing

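Cd160, Cd244a, Cd226 and Crtam were called lower in every alternative that tested them, which for Crtam leaves out the filter at a mean of 5 FPKM. In all, 47 genes were followed through the alternatives (Tbx21, Cd3e and the tested members, pathway genes and lectin receptors). Of these, 32 kept direction and call in every alternative, 8 lost or gained the call without a reversal, and 7 reversed. A reversal is here a change of sign with a call as deposited or in that alternative. Among the 8, Sh2d1a, Tigit, Itgb2 and Ptpn11 also changed sign in some alternative, with no call on either side. The 7 reversed after T cell scaling (an equal geometric mean of the T cell receptor list), which shifted the median of all genes tested by 0.35 on the log2 scale. They were Cd247 (to 0.21), Inpp5d (to 0.12), Itgal (to 0.21), Pvr (to 0.088), Tnfsf14 (to 0.25), Vav1 (to 0.32) and Zap70 (to 0.32). With that scaling 7476 genes were higher and 627 lower, against 3315 and 2531 as deposited, and 1 member, Sh2d1a, was called higher. Cd247 and Zap70 are themselves in the list that sets this scaling. The share of calls that were higher was 56.7% as deposited, 43.0% with median-of-ratios scaling, 39.6% after quantile normalization and 92.3% with the T cell list. At a mean of at least 5 FPKM 2018 genes were higher, fewer genes being tested. Leaving out 1 library gave 2391 to 3036 higher and 1726 to 2225 lower genes, with the same 4 members lower each time.

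The replicate numbers do not pair the libraries by any label, and same-numbered libraries did not deviate together (correlation -0.02 over 11013 genes). With the replicate block 3245 genes were higher and 2482 lower, with 4 members lower and 0 higher. Depth limits Ncr1 most, at 9 to 61 reads.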
